A study of Mus musculus with 10 samples.

Results

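The genes described here are H19 and 9 other imprinted genes: Igf2, Igf2r, Cdkn1c, Mest, Peg3, Plagl1, Grb10, Dlk1 and Meg3. They were taken by name from the count tables, as imprinted genes linked to growth and to stem cell quiescence, and they are 10 of the 24062 genes listed. H19 was chosen by its measured rise in DN1 over the control, so its levels in DN1 and control libraries are given as a description with no test.

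The series asked how Notch signaling acts on marrow stem and progenitor cells as they enter the T lineage in culture, and RNA-seq was done on 10 libraries. All cells started as LSK cells (lineage-depleted, SCA-1 and c-KIT high) sorted from the marrow of wild-type C57BL/6J mice and were grown with SCF, FLT3 ligand, IL-6 and IL-11. DN1 cells (KIT++CD44+CD25-) were sorted from cultures on a high density of the immobilized Notch ligand Delta1 ext-IgG, without IL-7. DN2a cells (KIT++CD44+CD25+) and DN2b cells (KIT+CD44loCD25+) were sorted from cultures on the same ligand to which IL-7 had been added, so stage and IL-7 cannot be told apart. The control, labelled IgG, was LSK cells grown on human IgG1 without Notch ligand to day 14. The DN stages had 2 libraries each (replicate 1 with the earlier date in the labels and replicate 2 with the later) and the control had 4, named D1, D2, R1 and R2, letters the labels do not explain. The methods say that replicates came from independent LSK isolates. The cells were an expanded culture and not thymus, and no sort of the control cells is described, so Notch ligand and the kinds of cells harvested cannot be told apart between DN and control libraries. IL-7 was added to the Delta1 cultures at day 14, and none is described for the control. Between DN2a or DN2b and the control, IL-7 and time in culture thus cannot be told apart from Notch ligand either.

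An imprinted gene is transcribed mainly from the copy inherited from 1 parent, and most such genes lie in clusters that share a control region. H19, a maternally expressed long non-coding RNA, and Igf2, a paternally expressed growth factor, are neighbours that share enhancers, and binding of CTCF to the unmethylated maternal control region keeps those enhancers from Igf2. In mouse marrow, H19 from the maternal copy is known for holding long-term stem cells in quiescence by limiting signaling from IGF2 to the IGF1 receptor. Transcripts of either parental copy were not separated in these counts.

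Gene counts summed to between 12354635 and 35367925 per library, and levels are given as counts per 1000000 gene counts (CPM). A level of 3 counts, used as a floor, was 0.0848 to 0.243 CPM. The sort genes fitted the labels in part. Il2ra, which encodes CD25, was 20.6 to 27.6 CPM in DN1, 1133 to 2121 CPM in DN2a and DN2b and 0.339 to 1.85 CPM in the control, while Cd44 was 11.1 to 13.1 CPM in DN2b and 45.1 CPM or more in the other libraries. Kit was 346 to 438 CPM in DN1, but the DN2a (176 and 205 CPM) and DN2b libraries (127 and 179 CPM) overlapped although their sorts differed in KIT. DN1 replicate 1 stood apart in other lineages, with summed neutrophil markers at 2933 CPM (85.0 CPM in DN1 replicate 2 and 21629 to 60090 CPM in the control), Klf1, an erythroid transcription factor, at 61.4 CPM (0.649 CPM), summed mast cell markers at 1647 CPM (476 CPM) and summed megakaryocyte markers at 455 CPM (133 CPM).

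Of the 10 imprinted genes, 6 reached at least 1 CPM in at least 2 libraries and entered the edgeR fit (H19, Igf2, Igf2r, Cdkn1c, Mest and Grb10). Plagl1, Dlk1, Meg3 and Peg3 did not and were fitted only with no filter, and Peg3 had 3 counts or fewer in every library. Without overlap between the 6 DN and 4 control libraries, H19, Igf2 and Dlk1 were higher in DN cells and Meg3 was lower in CPM. For Dlk1 the lowest DN library held 1 count, and Meg3 was at or under the floor in all 6 DN libraries. H19 had been chosen for its rise. How many of all genes separate in this way was not counted, so the separation is no result about the 10 genes. Of all genes tested by edgeR, 31.4% passed in DN1 over the control and 42.5% in DN2b. In bulk RNA, more cells that express a gene and more of its RNA per cell cannot be told apart.

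**Figure D1:**
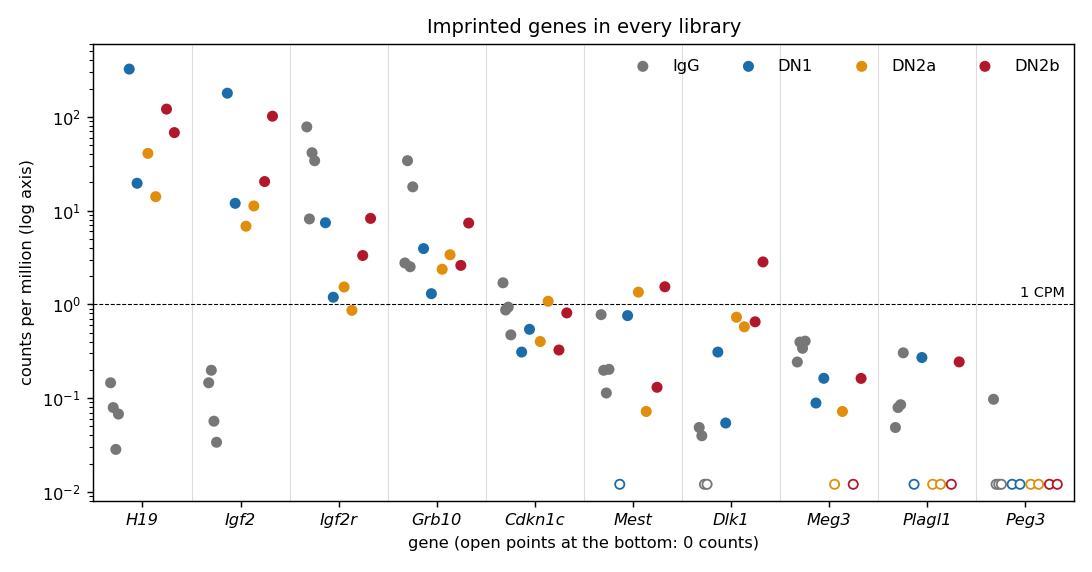
Level of each of the 10 imprinted genes in CPM (log axis) in every library, colored by group, with open points at the bottom for 0 counts and a dashed line at 1 CPM. H19 and Igf2 are at 0.198 CPM or less in the 4 control libraries and at 6.81 CPM or more in the 6 DN libraries, while Igf2r and Grb10 are highest in control libraries.

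H19 lies at chr7:142575529-142578143 on the minus strand (GRCm38, the mm10 assembly), where GENCODE annotates a lincRNA whose exons span 2.46 kb. Its primary transcript holds the hairpin of miR-675. The mature products are shown because they are what H19 is processed into, with the seed (bases 2 to 8) in capitals (RefSeq, GRCm38.p6). The arms have different seeds.
mmu-miR-675-5p: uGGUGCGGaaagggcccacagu
mmu-miR-675-3p: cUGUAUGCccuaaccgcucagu

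In DN1, H19 was 324 CPM in replicate 1 (7332 counts) and 19.6 CPM in replicate 2 (362 counts). In DN2a it was 40.8 and 14.1 CPM, and in DN2b it was 121 and 68.0 CPM. The control libraries had 0.0283 to 0.145 CPM, that is 1 to 3 counts each, which is at or under the floor. All 6 DN libraries were thus far above all 4 control libraries, and the DN1 libraries lay further apart than those of any other stage. The mean stood at 172 ± 215 CPM for DN1 (SD, n = 2), 94.5 ± 37.5 CPM in DN2b (SD, n = 2) and 27.5 ± 18.9 CPM in DN2a (SD, n = 2).

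Pooled over the control libraries, H19 had 8 counts, or 0.0721 CPM. Against that level the DN1 mean was 2382-fold higher, the DN2b mean 1311-fold and the DN2a mean 381-fold, given with no interval since H19 was chosen on this contrast. For a single library the ratio ran from 195-fold in DN2a replicate 2 to 4493-fold in DN1 replicate 1.

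The place of DN1 among the DN stages for H19 depended on 1 library. With DN1 replicate 1 left out, the fitted log2 difference of DN2a over DN1 moved from -2.40 to 0.60, while DN2b against DN1 went from -0.60 to 2.40. DN1 replicate 2 was below both DN2b libraries and between the DN2a libraries. The methods say that the stages were sorted from each LSK isolate, without naming the libraries of each, and within each replicate number H19 was lower in DN2a than in DN1 and higher in DN2b than in DN2a. The 1 comparison whose groups did not choose H19 was DN2b over DN2a: both DN2b libraries were above both DN2a libraries, with a log2 fold change of 1.80 (SE 0.97, 95% interval -0.38 to 3.98), which did not pass the edgeR test (adjusted p = 1, unadjusted p = 0.0953). In that comparison 0 of 12221 genes passed, 0% of those tested, while 335 had an unadjusted p under 0.05 and DESeq2 called 29.

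No read was assigned to the Mir675 row in any library. The libraries were not small RNA libraries, so a count of 0 in that row says nothing of the mature miRNA.

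Igf2 lies 72.6 kb from H19 at chr7:142650766-142666816, also on the minus strand. It encodes insulin-like growth factor 2, a secreted growth factor of fetal tissues. In DN1 it was 179 CPM in replicate 1 and 12.0 CPM in replicate 2. In DN2a it was 6.81 and 11.2 CPM. In DN2b it was 20.4 and 102 CPM, and in the control 0.0337 to 0.198 CPM (1 to 5 counts). As with H19, DN1 replicate 1 was the highest library and no DN library came near the control.

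Igf2 rose in DN1 over the control, with a log2 fold change of 9.47 (SE 1.17, edgeR adjusted p = 0.000845), and in DN2b over the control by 9.05 (SE 1.16, edgeR adjusted p = 0.000569). Both comparisons use the same 4 control libraries. Against the pooled control level of 0.0991 CPM (11 counts), the DN1 mean of 95.5 ± 118 CPM (SD, n = 2) was 964-fold higher (95% counting interval 539 to 1930). The DN2b mean of 61.1 ± 57.5 CPM (SD, n = 2) was 616-fold higher (344 to 1234), and the DN2a mean of 9.01 ± 3.11 CPM (SD, n = 2) was 90.9-fold higher (50.8 to 182). These intervals leave out the spread between libraries, whose single ratios ran from 68.7-fold in DN2a replicate 1 to 1807-fold in DN1 replicate 1. The calls against the control held in all 10 fits that left out 1 library, and the log2 fold change of DN1 over control was 6.58 without DN1 replicate 1. Since Igf2 is the neighbour of H19 and was listed with it, its rise is not independent of the choice of H19. Igf2 also reached 1 CPM in the 6 DN libraries only, so it passed the low-count filter only through the groups where it was high. Its p-values against the control carry both limits.

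Between DN stages, Igf2 did not pass the edgeR test. The log2 difference was -3.15 for DN2a over DN1 (SE 1.12, edgeR adjusted p = 0.330), -0.42 for DN2b over DN1 (SE 1.03, edgeR adjusted p = 0.899) and 2.73 for DN2b over DN2a (95% interval 0.25 to 5.22, edgeR adjusted p = 1). Without DN1 replicate 1, the value of DN2a over DN1 shrank to -0.28 and that of DN2b over DN1 changed sign to 2.46.

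The reference table holds 4 Igf2 promoter windows, from 250 bases before to 50 after a start. The counts cannot say which start was used. The 2 windows below are shown because they hold the core TGGGAA of the RBPJ motif, the DNA-binding partner of Notch, on either strand, in capitals (TTCCCA on the other strand, RefSeq GRCm38.p6, minus strand of the chromosome). The first window lies at the outermost annotated start.
Igf2 chr7:142666767-142667066: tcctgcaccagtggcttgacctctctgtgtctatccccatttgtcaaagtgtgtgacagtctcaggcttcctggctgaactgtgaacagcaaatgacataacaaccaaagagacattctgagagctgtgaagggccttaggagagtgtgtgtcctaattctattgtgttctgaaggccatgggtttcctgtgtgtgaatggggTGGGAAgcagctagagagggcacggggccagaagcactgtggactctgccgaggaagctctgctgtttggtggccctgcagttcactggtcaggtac
Igf2 chr7:142661222-142661521: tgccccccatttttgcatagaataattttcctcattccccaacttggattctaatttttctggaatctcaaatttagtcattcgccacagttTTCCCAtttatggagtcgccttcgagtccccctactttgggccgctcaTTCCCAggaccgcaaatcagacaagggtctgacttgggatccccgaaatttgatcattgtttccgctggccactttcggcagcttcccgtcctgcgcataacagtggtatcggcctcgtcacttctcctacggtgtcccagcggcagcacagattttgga

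The first window holds 1 match and the second 2. Across the 8 imprinted genes with a promoter in the table, 5 of 15 windows held a match, of which 2 are Mest windows that overlap and hold the same match, and 25.6% of the 32817 windows of all genes did. H19 and Cdkn1c had no entry. A match is a run of letters and not a bound site.

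The share of H19 in the pair varied between libraries. H19 made up 64.4% of the counts of the pair in DN1 replicate 1 (95% Clopper-Pearson interval 63.5 to 65.3) and 62.1% in DN1 replicate 2 (58.0 to 66.0). It was 85.7% and 55.7% in the DN2a libraries and 85.6% and 40.1% in the DN2b libraries. In DN2a and DN2b alike, replicate 1 had the higher H19 share and replicate 2, with the later label date, the lower, and DN2b replicate 2 was the only DN library with more Igf2 than H19 counts. The intervals cover counting error only, and neither the spread between libraries of a stage nor its relation to the label date was tested. Per kb of exon, the mean level of H19 was 69.8 CPM in DN1 against 16.7 CPM for Igf2, and 38.4 against 10.7 CPM in DN2b.

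**Figure D2:**
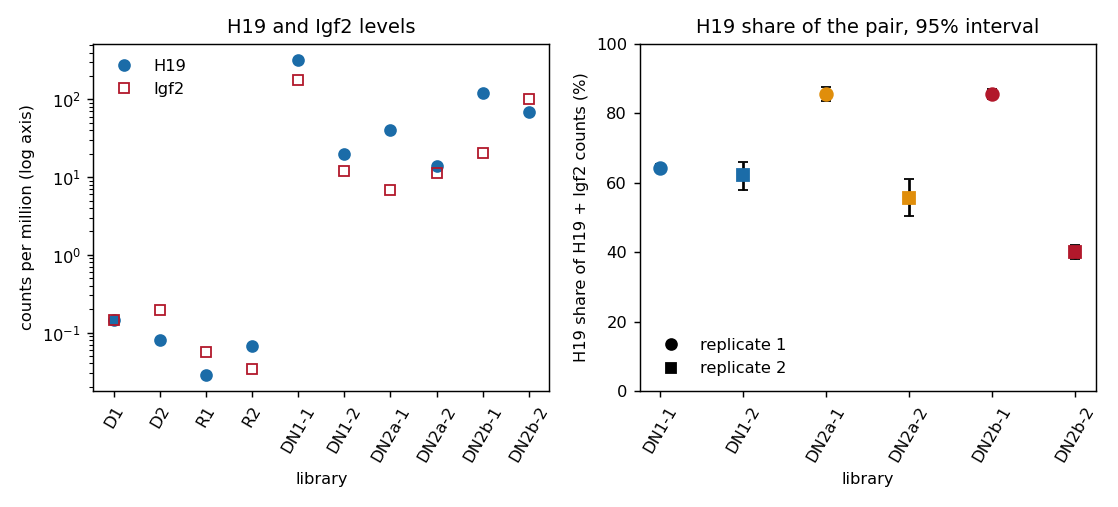
Left, H19 (filled circles) and Igf2 (open squares) in CPM (log axis) in each library; right, the percent of H19 plus Igf2 counts that are H19 in the 6 DN libraries with 95% Clopper-Pearson intervals, circles for replicate 1 and squares for replicate 2. The share runs from 40.1% in DN2b replicate 2 to 85.7% in DN2a replicate 1.

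Markers of stromal and endothelial cells, which can carry both transcripts, varied between the same libraries. The 7 stromal markers summed to 43.8 to 198 CPM in DN libraries and 1.11 to 4.30 CPM in the control, and Pdgfrb alone was 43.2 to 165 CPM in the DN libraries. The 5 endothelial markers summed to 64.1 to 148 CPM in DN libraries and 33.4 to 105 CPM in the control. Among defining genes, the collagens Col1a1, Col1a2 and Col3a1 together were 0.839 CPM in DN1 replicate 1 and 0.520 CPM in DN2b replicate 1, the 2 libraries with the most H19, and Cdh5, an endothelial cadherin, was at 0 and 0.130 CPM there. In DN2b replicate 2, the library with the lowest H19 share, the collagens were at 83.5 CPM and Cdh5 at 13.8 CPM. The other libraries did not follow that order: the collagens were at 6.96 CPM in DN2a replicate 1, with the highest H19 share, at 3.88 CPM in DN2a replicate 2 and at 29.7 CPM in DN1 replicate 2, whose share was close to that of DN1 replicate 1. Other genes of the lists did not follow the collagens: in DN1 replicate 1, Pdgfrb was at 125 CPM and Pecam1 at 146 CPM, and in DN2b replicate 1 Pdgfrb was at 43.3 CPM. No purity of the LSK sort or of the gates on KIT, CD44 and CD25 is given in the sources used here. The part of stromal and endothelial cells in the H19 and Igf2 levels was not tested.

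Klf1 was high in DN1 replicate 1 alone among the DN libraries (1390 counts, against 5 to 14 in the others), beside its high H19 and Igf2. Summed neutrophil, mast cell and megakaryocyte markers were also highest there among the DN libraries. The part of those cells in the levels of DN1 replicate 1 was not tested.

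**Figure D3:**
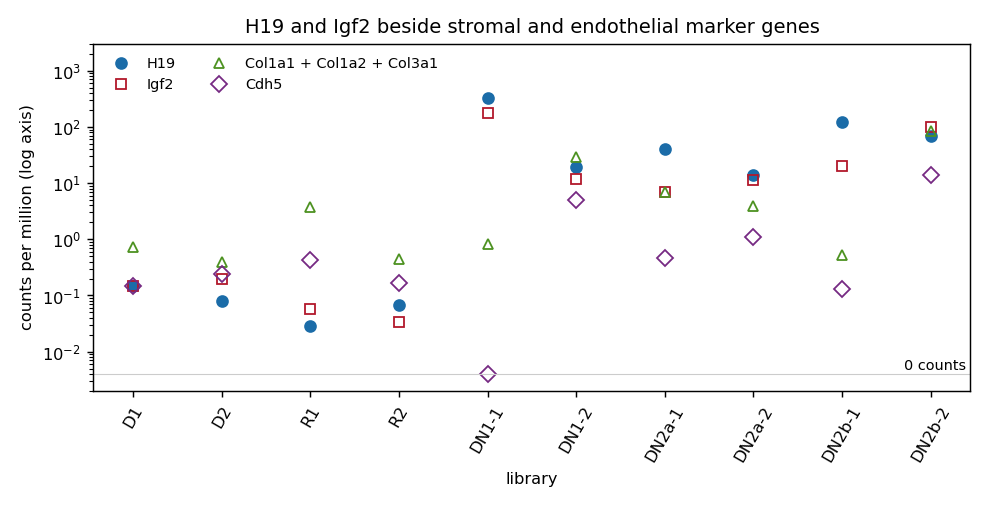
H19, Igf2, the sum of 3 collagen genes and Cdh5 in CPM (log axis) in each library, with 0 counts drawn on the gray line. DN1 replicate 1 and DN2b replicate 1 have the most H19 and collagen sums of 0.839 and 0.520 CPM, while DN2b replicate 2 has 83.5 CPM of collagen.

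Igf2r encodes the cation-independent mannose-6-phosphate receptor, which takes up IGF2 and sends it to lysosomes, and is maternally expressed (chr17:12682406-12769664, minus strand). It was 78.2, 8.15, 41.5 and 34.0 CPM in control libraries D1, D2, R1 and R2. In DN1 it was 7.42 and 1.19 CPM, in DN2a 1.53 and 0.862 CPM, and in DN2b 3.32 and 8.26 CPM. All DN1 and DN2a libraries were below all control libraries, while DN2b replicate 2 overlapped with D2.

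Igf2r fell in DN1 by 3.55 on the log2 scale (SE 1.02, edgeR adjusted p = 0.0271) and fell by 2.92 in DN2b (SE 0.98, edgeR adjusted p = 0.0386). The DN1 call held in 8 of 10 fits that left out 1 library, and was lost without DN1 replicate 2 (edgeR adjusted p = 0.138) and without R1 (edgeR adjusted p = 0.0510). The DN2b call held in 3 of 10, those without D2 or without either DN1 library, and elsewhere the edgeR adjusted p was 0.0516 to 0.209, the last without DN2b replicate 1. With D1 and D2 as the only controls, neither call held (edgeR adjusted p = 0.0697 and 0.0905). Summed macrophage markers, a lineage rich in lysosomal genes, were 964 to 3296 CPM in the control and 3.02 to 39.0 CPM in DN libraries. Within the control, Igf2r followed the same order as these markers, from D1 through R1 and R2 to D2. Within the DN libraries it did not. DN1 replicate 2 had the highest marker sum (39.0 CPM) with Igf2r at 1.19 CPM. In DN2b replicate 2, with the most Igf2r of the DN libraries (8.26 CPM), the sum was 4.53 CPM. The part of macrophages in the fall of Igf2r was not tested.

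With H19 set aside, 1 of the 5 genes tested was higher (Igf2) and 1 was lower (Igf2r) in DN1 over the control, where 31.4% of the 12221 genes tested passed (14.3% higher and 17.0% lower). The same counts were found in DN2b over the control, where 42.5% passed (19.9% higher and 22.5% lower). These shares lie near the background, so the counts are no result about the genes as a group. Their median log2 fold change was -1.51 in DN1 and -0.94 in DN2b, against 0.01 and -0.05 over all genes tested. Between stages 0 of the 5 passed, for DN2a over DN1 (0.401% of all genes passed, 0.196% higher and 0.205% lower) and for DN2b over DN1 (1.91% passed, 1.01% higher and 0.892% lower). At an unadjusted p under 0.05 edgeR had 1 of the 5 for the former and 0 for the latter, beside 1328 and 1694 of all 12221 genes. For DN2b over DN2a, with H19 included, it had 0 of 6 adjusted and 1 unadjusted. DESeq2 called 0 in each of these 3 comparisons.

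**Figure D4:**
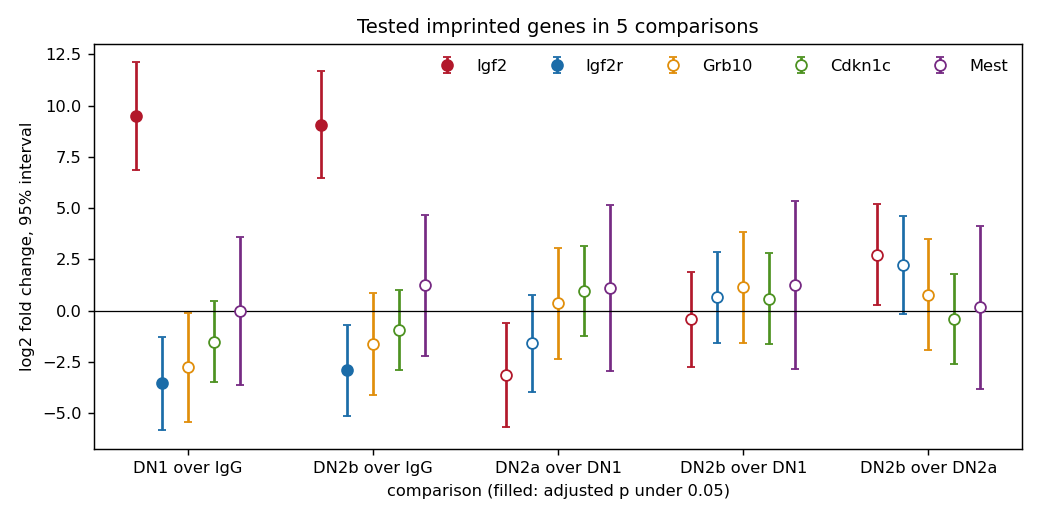
Log2 fold change with its 95% interval from the edgeR fit for the 5 tested genes other than H19, in 5 comparisons, filled where the adjusted p was under 0.05. Igf2 (9.47 and 9.05) and Igf2r (-3.55 and -2.92) are filled in the 2 comparisons with the control, and every point between DN stages is open.

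Grb10 encodes an adaptor that binds the insulin and IGF1 receptors and restrains their signaling. It was 2.76, 34.1, 2.52 and 17.9 CPM in D1, D2, R1 and R2. It was 3.93 and 1.30 CPM in DN1, 2.37 and 3.38 CPM in DN2a, and 2.60 and 7.37 CPM in DN2b. The groups overlapped, with D2 and R2 above all DN libraries and D1 and R1 within them. The log2 difference of DN1 over control, -2.77 (SE 1.18), did not pass the edgeR test (adjusted p = 0.101) and passed with DESeq2 (-2.82, adjusted p = 0.0150).

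Cdkn1c encodes p57, a cyclin-dependent kinase inhibitor that holds stem cells out of cycle. It had 5 to 15 counts in every DN library and 14 to 35 in the control, or 0.309 to 1.08 CPM against 0.472 to 1.70 CPM. The groups overlapped, and the log2 difference was -1.51 for DN1 (SE 0.88, edgeR adjusted p = 0.218) and -0.94 for DN2b (SE 0.87, edgeR adjusted p = 0.400).

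Mest encodes a hydrolase-like protein of mesoderm. It had 0 and 14 counts in DN1, 37 and 1 in DN2a, 2 and 19 in DN2b, and 4 to 16 in the control. The libraries with more counts did not follow stage, and the log2 difference of DN1 over control was -0.02 with a 95% interval from -3.62 to 3.58 (edgeR adjusted p = 0.994). Differences of either sign within that interval are compatible with these counts.

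Dlk1, a transmembrane relative of the Delta ligands, had 7 and 1 counts in DN1. The DN2a libraries had 20 and 8 counts and the DN2b libraries 10 and 35, against 0 or 1 in each control library. The DN2a and DN2b libraries were above all control libraries, the highest, DN2b replicate 2, at 2.83 CPM, while DN1 replicate 2 had 1 count as control libraries did and was not measurably higher. Meg3, the maternally expressed non-coding RNA of the same cluster, went the other way, with 5 to 12 counts in the control and 0 to 3 in the DN libraries, so that DN levels were at or under the floor. Neither gene passed the filter on low counts. In the fit with no filter, over 18854 genes, Dlk1 rose in DN2b over the control (edgeR adjusted p = 0.00395, with 26.3% of those genes called) and did not pass in DN1 (edgeR adjusted p = 0.184). Meg3 passed in neither (edgeR adjusted p = 0.397 in DN1 and 0.283 in DN2b).

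Plagl1, a zinc finger factor that regulates other imprinted genes, had 0 to 5 counts in DN libraries and 1 to 9 in the control. Peg3, another zinc finger protein, had 2 counts in D1 and 0 in the other 9 libraries, which allows up to 0.0848 to 0.243 CPM in each. Neither gene was measurable as different between groups at this depth.

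By Pearson correlation of log2 CPM over the 10 libraries, the genes most like H19 were Nqo1 (a quinone reductase, 0.985), Il9r (the IL-9 receptor, 0.979), Art4 (0.976), Axin2 (a feedback target of WNT signaling, 0.970) and C030013G03Rik (0.970). Igf2 ranked 6 of the 12220 other genes tested (0.969). The 10 libraries fall into a control and a DN cluster, which sets most of these values. Within the 6 DN libraries, r was 0.856 for Nqo1, 0.854 for Il9r, 0.743 for Art4, 0.742 for Igf2, 0.693 for Axin2 and 0.646 for C030013G03Rik. Nqo1 was 307 and 86.4 CPM in DN1, 184 and 69.8 CPM in DN2a, 378 and 316 CPM in DN2b and 1.89 to 4.59 CPM in the control. Like H19, it was lower in replicate 2 of each stage.

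Of the 10 nearest annotated genes on each side of H19, 20 in all, 13 had a row and 6 passed the filter. In DN1 over the control 3 of the 6 passed (31.4% of all genes did), with Igf2 higher and Lsp1 and Ctsd lower. In DN2b over the control all 6 passed (42.5% of all genes did), with Igf2, Mrpl23 and Tnnt3 higher and Lsp1, Ctsd and Tnni2 lower. The 322 counts of Tnnt3, a muscle troponin gene, in DN2b replicate 2 stood against 0 in DN2b replicate 1. Mrpl23, a mitochondrial ribosomal protein gene 34.8 kb away, was 77.0 to 116 CPM in DN and 33.9 to 55.9 CPM in control libraries, and rose in DN2b by 1.29 (edgeR adjusted p = 0.00429). Ins2, which lies beyond Igf2 and is paternally expressed, had 0 counts in every library. Igf2os, the antisense gene over Igf2, had 19, 0, 0, 1, 5 and 13 counts in the 6 DN libraries in stage order and at most 1 in the control. The strand setting of the counting is not given in the sources used here, so reads of Igf2 and Igf2os, and likewise of Igf2r and Airn, cannot be told apart with certainty.

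Within the Igf2r cluster, the neighbours moved in opposite directions. Slc22a3, an organic cation transporter that is maternally expressed in placenta, was 101 and 62.3 CPM in DN1, 55.8 and 56.1 CPM in DN2a, 46.9 and 45.2 CPM in DN2b and 0.707 to 5.93 CPM in the control. No DN library came near the control, and the stages were close to each other. Slc22a3 rose by a log2 fold change of 4.73 in DN1 (SE 0.73, edgeR adjusted p = 0.00212) and by 4.11 in DN2b (edgeR adjusted p = 0.00230). Airn, the paternal non-coding RNA that silences the cluster, had at most 10 counts in any library.

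Within the Kcnq1 cluster, which holds Cdkn1c, Kcnq1ot1, the paternal non-coding RNA that silences it, was 8.96, 59.0, 21.6 and 43.9 CPM in D1, D2, R1 and R2, and 1.35 to 5.26 CPM in DN libraries. All DN libraries were lower. Summed neutrophil markers were 21629 to 60090 CPM in the control and 1.496 to 2933 CPM in DN libraries. Among the controls this sum did not follow the order of Kcnq1ot1, with R1 (37376 CPM) above R2 (23016 CPM). Within the list, Mpo, a granulocyte precursor gene, did (12386 CPM in D2, 7418 CPM in R2, 4093 CPM in R1 and 2558 CPM in D1). Elane and Prtn3 had the same order as Mpo, while S100a8, S100a9, Ngp and Ltf were lowest in R2. The part of neutrophil cells in the level of Kcnq1ot1 was not tested. Kcnq1ot1 fell by 3.57 in DN1 (edgeR adjusted p = 0.0136) and fell by 3.51 in DN2b (edgeR adjusted p = 0.0108) on the log2 scale. Osbpl5, an oxysterol-binding protein gene at the edge of the cluster, was 3.36 to 11.9 CPM in DN and 0.311 to 0.674 CPM in control libraries, and rose by 2.81 in DN1 (edgeR adjusted p = 0.00792) and by 3.70 in DN2b (edgeR adjusted p = 0.00159). Slc22a18, a transporter gene, was 0.455 and 0.0809 CPM in DN2b, below the 0.809 to 3.49 CPM of the control, and fell by 2.96 there (edgeR adjusted p = 0.0385), while the DN1 libraries (1.68 and 3.52 CPM) overlapped with the control. Ascl2 had 0 counts in all 6 DN libraries and 0.337 to 0.792 CPM in the control. Tssc4 was 24.0 to 43.1 CPM in DN and 19.2 to 39.6 CPM in control libraries, and these ranges overlapped.

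**Figure D5:**
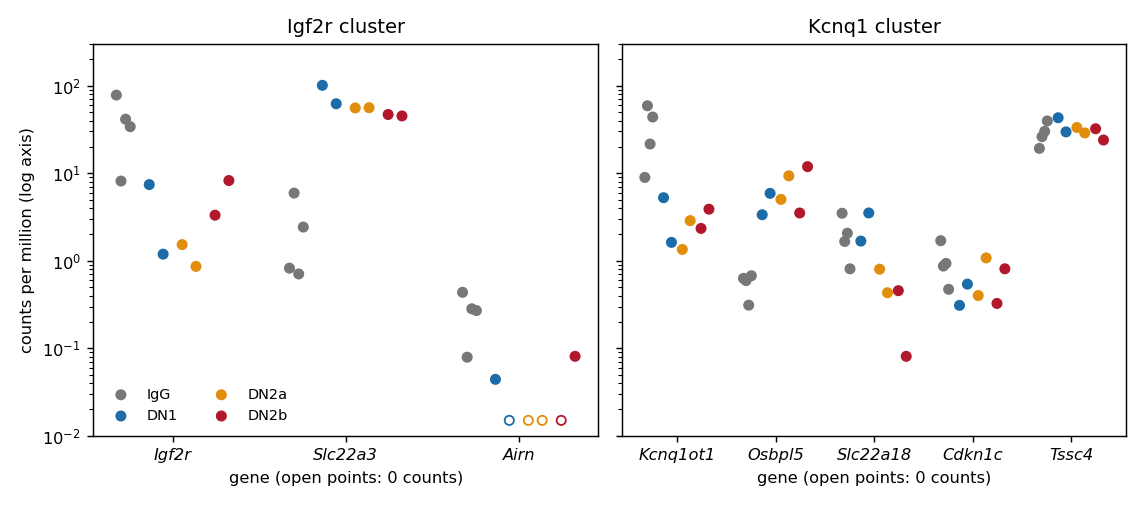
Levels in CPM (log axis) of genes in the Igf2r cluster (left) and the Kcnq1 cluster (right) in every library, colored by group, with open points for 0 counts. Slc22a3 and Osbpl5 are higher in all 6 DN libraries than in the 4 control libraries, Kcnq1ot1 is lower in all 6, and Tssc4 overlaps.

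Of 45 further imprinted genes listed, 17 were tested. In DN1 over the control, 2 were higher and 3 lower, or 29.4%, and in DN2b 2 were higher and 5 lower, or 41.2%, beside the 31.4% and 42.5% of all genes. Besides Kcnq1ot1 and Slc22a18, the genes of the list that fell in DN2b were Gatm (log2 fold change -5.90, edgeR adjusted p = 0.00208), Ppp1r9a (-5.56, edgeR adjusted p = 0.0181) and Peg13 (-2.31, edgeR adjusted p = 0.00704). Among the controls Gatm, too, followed the order of Mpo, Elane and Prtn3. It did not follow that of the summed neutrophil markers or of S100a8, S100a9, Ngp and Ltf, and the part of neutrophil cells was not tested. None of the 17 passed between DN stages by edgeR, where an unadjusted p under 0.05 was found for 1 (DN2a over DN1), 3 (DN2b over DN1) and 0 (DN2b over DN2a), beside 1328, 1694 and 335 of all 12221 genes. DESeq2 called 0, 1 and 0 of the 17, beside 467, 820 and 29 of all genes.

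Other genes of IGF signaling (the ligand Igf1, receptors, their adaptors and IGF-binding proteins) were listed next. Of 12, 9 were tested, of which 1 was higher and 4 were lower in DN1 over the control, and 3 were higher and 4 lower in DN2b, beside the 31.4% and 42.5% of all genes that passed. Igf1, the other ligand of the IGF1 receptor, was 30.6 to 399 CPM in the control and 0 to 0.379 CPM in DN libraries (edgeR adjusted p = 0.00274 in DN1 and 0.00164 in DN2b), the reverse of Igf2. Igf1r, the receptor, was 30.2 to 82.4 CPM in control libraries and 42.9 and 16.8 CPM in DN1, and fell by 1.23 in DN1 (edgeR adjusted p = 0.0472), while the log2 difference in DN2b, -0.68, did not pass (edgeR adjusted p = 0.192). Igf1 followed the order of the macrophage markers among the control libraries, and their part in its level was not tested.

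IGF-binding proteins hold IGFs outside cells. Igfbp4, the most abundant, was 127 to 634 CPM in DN and 159 to 467 CPM in control libraries and did not pass, and Igfbp6 was lower in DN1 (edgeR adjusted p = 0.0300) and DN2b (edgeR adjusted p = 0.00379). Others varied between DN libraries of 1 stage. Igfbp5 was 33.4 and 2.97 CPM in DN1, 1.13 and 0.216 CPM in DN2a, 0.065 and 4.29 CPM in DN2b and 0 to 0.158 CPM in the control, and rose in DN1 (log2 fold change 7.80, edgeR adjusted p = 0.00847). Igfbp7 was highest in DN2b replicate 2, at 48.3 CPM, against 0.585 CPM in DN2b replicate 1, and Igfbp2 was 9.79 CPM in that library and 0.065 CPM in replicate 1. These are the libraries that also differed in collagen and Cdh5, whose part in them was not tested.

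Of 7 fetal growth genes linked to let-7, 6 were tested, and 0 were higher and 2 lower in DN1 over the control and 0 higher and 3 lower in DN2b. Of all genes, 14.3% were higher and 17.0% lower in DN1, and 19.9% and 22.5% in DN2b, so with 6 genes these counts are no result about the list. Lin28a, an RNA-binding protein that blocks let-7, was 8.58 to 17.9 CPM in the control and 0 in 5 of the 6 DN libraries. Igf2bp3, which binds Igf2 mRNA, was 15.2 to 45.9 CPM in DN and 1.74 to 38.6 CPM in control libraries, which overlapped. Among 7 genes that maintain imprints, 5 were tested and 1 passed in each comparison with the control, where 31.4% (DN1) and 42.5% (DN2b) of all genes did. It was Trim28, the co-repressor recruited to imprinted control regions. Trim28 was 447 to 764 CPM in DN and 194 to 381 CPM in control libraries, and rose in DN1 (edgeR adjusted p = 0.0174) and by a log2 fold change of 1.16 in DN2b (edgeR adjusted p = 0.0121). Ctcf, Dnmt1 and Uhrf1 did not pass.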

How the data were processed

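Stranded total RNA libraries (TruSeq) were made from column-purified RNA. The authors trimmed read 1 to its first 36 bases, aligned it to mm10 with TopHat and counted reads per gene with htseq-count (intersection-strict), and they deposited raw counts per gene symbol for each library, followed by 5 summary lines. The submitters' notes name TopHat2 2.12, Cufflinks 2.2.1 and HTSeq 0.6.1p1. The annotation and strand setting are not given in the sources used here. Summary lines, 20.5 to 41.0% of all reads tallied, were left out, and CPM were computed over gene rows. Short reads that fit several places were not counted (16.4 to 30.1%).

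The filter on low counts asked for 1 CPM or more in 2 or more libraries and kept 12221 of 24062 genes. With edgeR 4.0.16 in R 4.3.3, 1 model of the 4 groups took in the 10 libraries (quasi-likelihood test, TMM, prior count 0.125). P-values were adjusted by Benjamini-Hochberg across the genes kept, with a threshold of 0.05. The script was tested on simulated counts. DESeq2 1.42.0, library-size scaling, no filter, other sets of libraries, a replicate block and each library left out were alternatives. The smallest total, 12354635 counts, puts the floor of 3 counts at 0.243 CPM.

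The 10 genes and all lists were chosen with earlier results of these data known. All 10 genes are named, with up to 4 called genes of each wider list by size of change, the 5 genes most like H19 and its neighbours; Slc22a18, Igf1r, Igfbp4, Igfbp6, Ascl2, Tssc4, Airn, Ins2, Igf2os, Igf2bp3 and the marker genes named one by one were picked after their values were seen. Gene positions are GENCODE M21 on GRCm38. Libraries of DN2a and DN2b with the same number carry the same date in their labels, and the correlation of their deviations was 0.270 (0.084 for DN1 with DN2a and 0.287 for DN1 with DN2b).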

Additional observations from a re-analysis of the deposited data

Results flagged for a closer look

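In 6 of 52 groups of 4 control libraries, a single library lay apart from the others by Dixon's test. Its chance rate of about 1 in 20 holds for normal values and not for low counts, so these 6 show no excess. Among the 10 imprinted genes the flagged libraries were Mest in D1 (0.775 CPM, the others 0.113 to 0.202 CPM), Peg3 in D1 (0.0969 CPM, the others 0) and Plagl1 in R2 (0.303 CPM, the others 0.0485 to 0.0848 CPM), all at 16 counts or fewer. With the others at 0, any count of Peg3 in D1 would have been flagged. Hmga2 was 38.6 CPM in D1 (the others 7.79 to 10.2 CPM), Klf1 was 1.38 CPM in D2 (the others 0.254 to 0.436 CPM) and Col1a2 was 0.678 CPM in D1 (the others 0 to 0.0791 CPM).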

How the results depend on the processing

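Igf2 kept its direction and its call against the control under every alternative run. For Igf2r with D1 and D2 as the only controls, the call was lost in DN1 (-3.78, edgeR adjusted p = 0.0697) and DN2b (-3.14, edgeR adjusted p = 0.0905), which left 1 gene of the 5 past the threshold in each, and 2329 and 3264 genes in all. DESeq2 called 467 genes for DN2a over DN1, 820 for DN2b over DN1 and 29 for DN2b over DN2a, and no filter gave 101 in DN2a over DN1, 1 in DN2b over DN2a and 3 of 9 imprinted genes (Dlk1 added) in DN2b over control. Fitting only the groups compared gave 25 genes in DN2a over DN1 and 80 in DN2b over DN1. Fitting the DN libraries alone, chosen after seeing the data, gave 32 in DN2a over DN1. The replicate block on the DN libraries gave 58, 233 and 0 genes in the 3 stage comparisons and changed no call of Igf2, Igf2r, Mest or Grb10, nor of H19 in DN2b over DN2a. Mest changed sign in DN1 over control with library-size scaling (0.24) and with R1 and R2 as the only controls (1.14), and in DN2b over DN2a with the replicate block (-1.13). Library-size scaling moved the median of all genes in DN1 over control by 0.261. H19 in DN2b over DN1, given with no test, ran from -0.86 to 0.18 over the settings other than leaving out a library. The cause of these moves was not tested.

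Leaving out 1 library at a time gave 1867 to 4163 genes in DN1 over control, 2683 to 5674 in DN2b over control, 0 to 229 for DN2a over DN1, 51 to 383 for DN2b over DN1 and 0 to 1 for DN2b over DN2a, and 1 to 2 of the 5 genes in each comparison with the control. Signs turned within these ranges: in DN2a over DN1, Grb10 (-0.19 to 1.27) and Igf2r (-2.34 to 0.16); in DN2b over DN1, Cdkn1c (-0.17 to 1.10), Igf2 (-1.94 to 2.46) and Igf2r (-0.12 to 2.38); in DN2b over DN2a, Cdkn1c (-1.13 to 0.11), Grb10 (-0.12 to 1.32) and Mest (-0.70 to 1.05); and Mest in DN1 over control (-5.96 to 1.01). With 2 libraries a stage, and 3 counts worth up to 0.243 CPM, Cdkn1c, Mest, Dlk1, Meg3, Plagl1 and Peg3 had few counts, and differences between stages were not detected for them.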
